A study of Homo sapiens with 8 samples.

Results

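The genes described here encode the ubiquitin-conjugating enzymes (E2 enzymes, symbols beginning UBE2) and the ubiquitin-specific proteases (deubiquitinases, symbols of USP followed by a number), together with the related protease gene USPL1. They were chosen by symbol alone, through the RefSeq identifier that the array gives for each probe, and USP18 was left out. The array held 127 such probes of 41000, for 77 of the 16557 genes to which a symbol could be given. Conjugating enzymes accounted for 52 probes of 31 genes and deubiquitinases for 71 probes of 43 genes. The remaining 4 probes belonged to 3 genes that carry such a symbol without being either: the pseudogenes UBE2MP1 and UBE2NL, and USP6NL, which encodes a GTPase-activating protein. They were kept apart from both classes. Of the listed family members, 13 were not analysed here because no probe was matched to them: UBE2C, UBE2V1, UBE2QL1, USP11, USP22, USP24, USP27X, USP35, USP36, USP45, USP50, USP52 and USP53.

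The study compared ST486 cells, a Burkitt lymphoma (BL) line, after retroviral transduction with the empty MXW-PGK-IRES-GFP vector (EV-ST486, here EV cells) or with the same vector carrying miR-155 (miR-155-ST486, here miR-155 cells). The paper reports sorting of GFP+ cells for checking the overexpression of miR-155, and both vectors carry GFP. MiR-155 is expressed ectopically in a line with little of its own. From each cell population RNA of the whole lysate, the total (T) fraction, was compared with RNA immunoprecipitated through an Ago2 antibody (IP fraction) on 2-colour whole genome arrays. All 4 RNA samples were labelled once with Cy3 and once with Cy5, and each vector has 1 array with total RNA in Cy3 and IP RNA in Cy5 and 1 array with the dyes exchanged. The labellings are technical repeats of 1 RNA sample. Each condition therefore has n = 1, no test could be run, and dye orientations differ only by labelling and hybridization error. The arrays of the vectors lie on separate slides, so that slide and vector cannot be told apart. IP and total RNA of a vector were hybridized together.

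Ubiquitin is attached to proteins by a cascade of an activating enzyme (E1), a conjugating enzyme (E2) and a ligase (E3), and the E2 enzyme decides in many cases which kind of ubiquitin chain is made. Related E2 enzymes carry ubiquitin-like proteins such as SUMO, NEDD8 and ISG15. Deubiquitinases cut ubiquitin off again, and the ubiquitin-specific proteases are the largest family among them, with roles in p53 control, DNA repair, endosomal sorting and NF-κB signalling, which matter in B-cell lymphoma. Ago2 is the protein that holds a miRNA on its target transcripts, so that transcripts bound by miRNAs are found in the IP fraction. MiR-155 is a miRNA with high levels in many B-cell lymphomas and low levels in BL.

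The mature sequences of miR-155 are shown because this miRNA is what the groups differ in by design. Capitals mark the seed, bases 2 to 8 from the 5′ end, with which a miRNA recognises its targets (RefSeq, GRCh38.p14, chr21:25573983-25574006 and chr21:25574022-25574043, plus strand).
hsa-miR-155-5p: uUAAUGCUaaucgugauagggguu
hsa-miR-155-3p: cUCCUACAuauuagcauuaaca
Among 2370 human mature miRNA names in RefSeq, 0 others shared the seed of hsa-miR-155-5p and 0 that of hsa-miR-155-3p. Target sites in the transcripts of the ubiquitin genes were not searched here.

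Signals are intensities after quantile normalization over the 8 channels. A probe was kept if it was detected in at least 4 channels and if the Cy3 and Cy5 labellings of each sample were within 2-fold. These filters kept 15529 of all probes (37.9%) and 97 of the 127 ubiquitin probes (76.4%). Between 14094 and 22161 of all probes were detected per channel, and 0 spots were saturated, so that precision is limited by the number of arrays. The IP/T ratio is IP signal over total signal of the same cells, and dividing the IP/T ratio of miR-155 cells by that of EV cells gives the miR-155/EV ratio. Where a ratio is followed by a pair in parentheses, the first value of the pair is from the array or arrays with total RNA in Cy3 and the second from those with IP RNA in Cy3. As a check of the label, the B cell markers CD79A, CD79B, MS4A1 and MME were detected in all 8 channels, CD22 in 7 and PAX5 in 0, whereas the 4 T cell markers were detected in 0 channels and of 5 myeloid markers only CD14 was detected, in 5 channels. Brightness depends on the probe, so signals of different probes are not set against each other below other than as medians of a class.

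Conjugating enzymes were detected more widely than deubiquitinases. Of their 52 probes 45 were kept (86.5%, 28 genes), 2 were detected in fewer than 4 channels and 5 differed too much between labellings. Of the 71 deubiquitinase probes 48 were kept (67.6%, 30 genes), 17 were detected in fewer than 4 channels and 6 differed between labellings. Detection in all 8 channels held for 40 of the 45 kept conjugating enzyme probes (88.9%) and for 31 of the 48 kept deubiquitinase probes (64.6%). Over all probes kept it held for 12072 of 15529 (77.7%). No probe was kept for 3 conjugating enzymes (UBE2D4, UBE2R2 and UBE2U) and 13 deubiquitinases, among them USP26, USP29 and USP17L2, the germline and testis group, and USP2, USP19, USP30, USP38, USP40, USP43, USP44, USP49 and USP51. Every kept probe of both classes was detected in at least 1 labelling of each of the 4 samples.

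The kept conjugating enzyme probes were also brighter. Their median signal in the total fraction of EV cells was 1866 (quartiles 620.3 and 4492), against 423 for deubiquitinase probes (quartiles 129 and 1072) and 807 for all probes kept. In the total fraction of miR-155 cells the medians were 1429.7, 418 and 818. The order of the classes was the same in every channel: class medians of the 4 total channels ran from 1499 to 1885 for conjugating enzymes and from 357 to 452 for deubiquitinases. The classes lay closer together in the IP fraction. There the medians of conjugating enzymes and deubiquitinases were 1078 and 636 in EV cells and 1212 and 815 in miR-155 cells.

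The IP/T ratios of deubiquitinases were higher than those of conjugating enzymes on all 4 arrays. In EV cells the median log2 IP/T was 0.49 over 48 deubiquitinase probes and -0.12 over 45 conjugating enzyme probes, and over all probes kept it was -0.15. In miR-155 cells these medians were 0.39, -0.19 and -0.18. Conjugating enzymes thus lay near the median of the array and deubiquitinases above it. The difference between the class medians was 0.62 on the log2 scale in EV cells (0.38 with total RNA in Cy3 and 0.45 with IP RNA in Cy3). In miR-155 cells it was 0.59 (0.51 and 0.56). The median was taken anew for the mean of the orientations, so that it need not lie between theirs. The classes overlapped widely, with interquartile ranges of -0.83 to 0.51 for conjugating enzymes and -0.43 to 1.15 for deubiquitinases in EV cells. The size of the difference depended on the processing. With a background correction by normexp with an offset of 50 it was 0.28 in EV cells and 0.22 in miR-155 cells, with detection required in all 8 channels 0.26 in EV cells and 0.12 in miR-155 cells, and with 1 value per gene, the mean of its probes, 0.39 in EV cells and 0.28 in miR-155 cells. Its direction turned among bright probes, at a mean log2 signal of 12 or more in both vectors and of 10 or more in miR-155 cells, as given below.

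**Figure D1:**
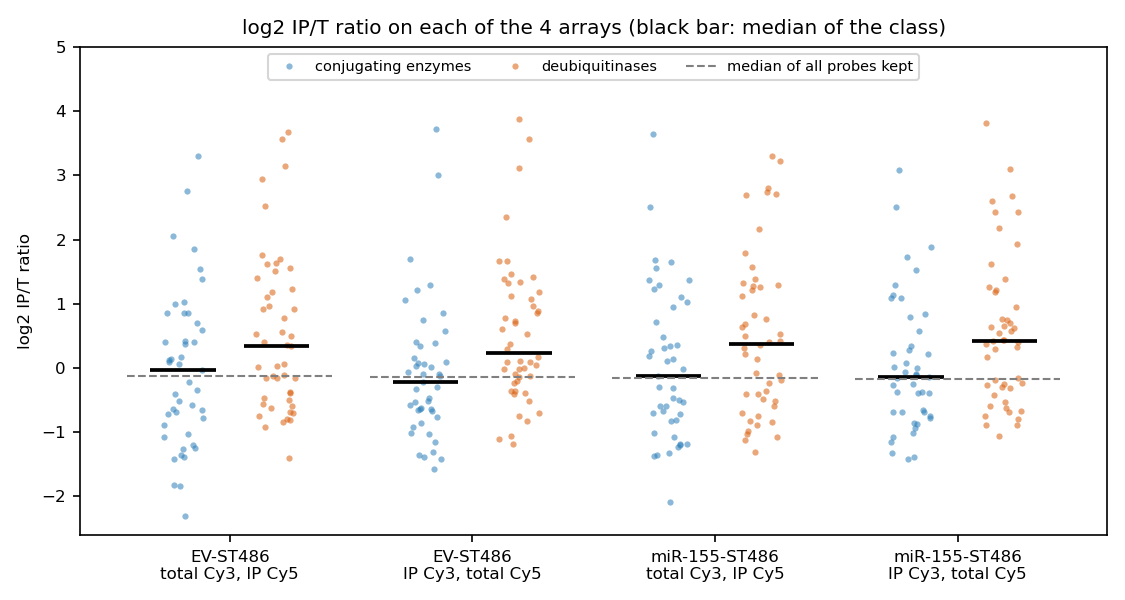
log2 IP/T ratio (vertical axis) of the 45 conjugating enzyme probes (blue) and 48 deubiquitinase probes (orange) on each of the 4 arrays; each point is a probe, black bars are class medians and dashed lines the median of all probes kept. The deubiquitinase median lies above the conjugating enzyme median on every array, by 0.38 to 0.56, while the points of both classes overlap.

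An IP/T ratio of at least 2 was used by the study to define the miRNA targetome, and 12.1% of all probes kept reached it in EV cells and 12.2% in miR-155 cells. Among deubiquitinases 14 of 48 probes (29.2%) did so in each vector, for USP3, USP12, USP15, USP31, USP33, USP37, USP42 and USPL1 in both, for USP32 in EV cells and for USP28 in miR-155 cells. Among conjugating enzymes 5 of 45 probes (11.1%) did so in EV cells, for UBE2Q1, UBE2Q2, UBE2W and UBE2Z, and 10 (22.2%) in miR-155 cells, where UBE2A, UBE2B and UBE2N joined them. The deubiquitinase share lay above the background in both vectors, whereas the conjugating enzyme share was near it in EV cells and above it in miR-155 cells. The filter asked for detection in 4 of the 8 channels, so probes with dim totals could pass through their IP channels. With detection required in all 8 channels, 7 of 31 deubiquitinase probes reached 2 in each vector, and their median log2 IP/T lay below 0. Of 40 conjugating enzyme probes 3 then did so in EV cells and 8 in miR-155 cells. The share of all probes at that setting is not given. After normexp correction and quantile normalization 6 and 8 of 54 deubiquitinase probes reached 2 in EV cells and miR-155 cells, or 11.1% in EV cells and 14.8% in miR-155 cells, beside 6.05% in EV cells and 6.26% in miR-155 cells of all probes at that setting. Conjugating enzymes then had 3 and 4 such probes of 44. The ratio reached 2 in both vectors for 13 deubiquitinase and 5 conjugating enzyme probes (27.1% and 11.1%), against 10.2% of all probes kept.

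At the low end conjugating enzymes had the larger share. IP/T ratios of at most 0.5 were found for 10% of all probes kept in EV cells and 9.83% in miR-155 cells. 8 conjugating enzyme probes (17.8%) were this low in each vector, and 5 in both, for UBE2D2, UBE2J2, UBE2L6 and UBE2S, against 6.51% of all probes kept that were this low in both. After normexp correction and quantile normalization 5 and 2 of 44 conjugating enzyme probes were this low. That was 11.4% in EV cells and 4.55% in miR-155 cells, beside 2.98% and 2.84% of all probes at that setting. After normexp with loess 3 and 1 of 44 were, or 6.82% in EV cells and 2.27% in miR-155 cells. Of all probes 1.84% and 1.96% were this low with loess, so that in miR-155 cells the share was near the background. In the values without normexp, deubiquitinases held 2 such probes in EV cells, of USP34 and USP48, and 1 in miR-155 cells, of USP48. Ratios above 1 on all 4 arrays were found for 25 of 48 deubiquitinase and 14 of 45 conjugating enzyme probes (52.1% and 31.1%, with 26.3% over all probes kept). Ratios below 1 on all 4 arrays were found for 14 and 21 probes (29.2% and 46.7%, with 39.3%).

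The gap between the classes differed with signal. Signal bands were set by the mean log2 signal over the 8 channels. Below 8, the median log2 IP/T in EV cells was 0.69 over 15 deubiquitinase probes and 0.04 over 3 conjugating enzyme probes. Between 8 and 10 it was 0.63 (n = 19 probes) and -0.30 (n = 16 probes), and between 10 and 12 it was -0.11 (n = 11 probes) and -0.64 (n = 14 probes). Deubiquitinases were thus the higher class in each of these bands. At 12 and above the order turned, with -0.49 over 3 deubiquitinase probes and 0.31 over 12 conjugating enzyme probes. MiR-155 cells showed the same order in every band. Over all probes kept the band medians ran only from -0.17 to -0.13 in EV cells. Among probes with a mean log2 signal of 10 or more, the class difference was 0.16 in EV cells and -0.11 in miR-155 cells, so its sign there depended on the vector. Of the 14 deubiquitinase probes that reached 2 in each vector, 3 had a mean log2 signal of 10 or more.

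**Figure D2:**
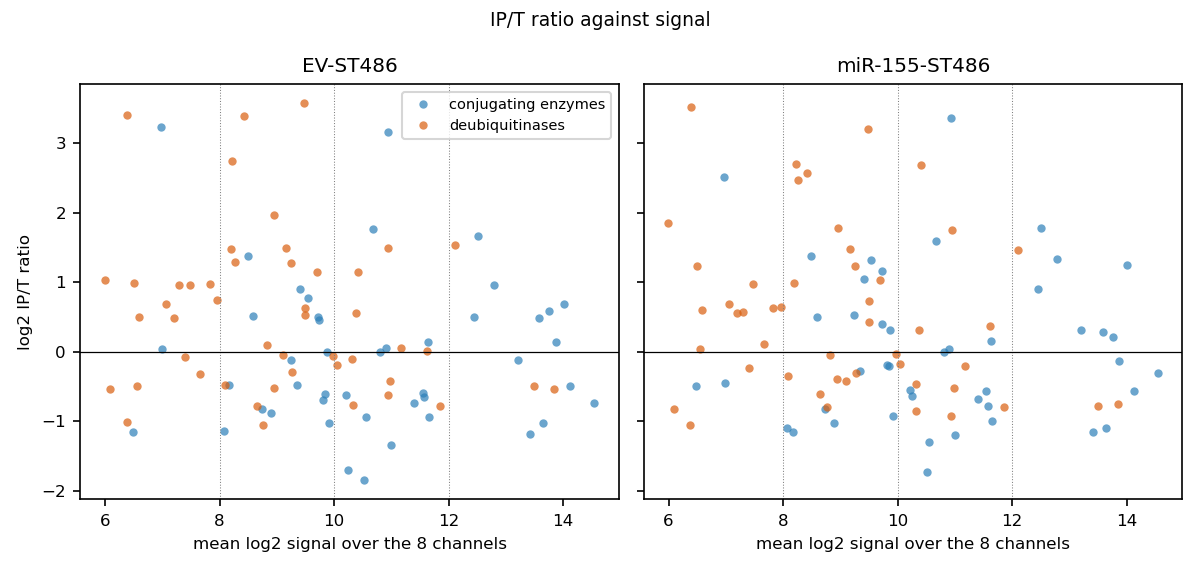
log2 IP/T ratio (vertical axis) against the mean log2 signal over the 8 channels (horizontal axis) in EV cells (left) and miR-155 cells (right); each point is a probe and dotted lines bound the signal bands. Most deubiquitinase probes with high ratios lie at signals of 10 or less, and 12 conjugating enzyme probes against 3 deubiquitinase probes lie at 12 or more.

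The dye orientations show the labelling error of a single ratio among the probes kept. Probes whose labellings differed by more than 2-fold in a sample had been removed first, 11 ubiquitin probes and 3940 of all probes. The values below therefore understate the error of labelling. Between orientations, the IP/T ratio of a conjugating enzyme probe differed by 1.31-fold in the median and by at most 2.23-fold in EV cells, and by 1.15-fold and at most 2.28-fold in miR-155 cells. For deubiquitinase probes the values were 1.32-fold and 2.35-fold in EV cells and 1.22-fold and 2.55-fold in miR-155 cells. The orientations placed 39 and 40 of the 45 conjugating enzyme probes, and 44 and 42 of the 48 deubiquitinase probes, on the same side of 1. Over all 15529 probes kept, these counts were 11819 in EV cells and 13026 in miR-155 cells.

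**Figure D3:**
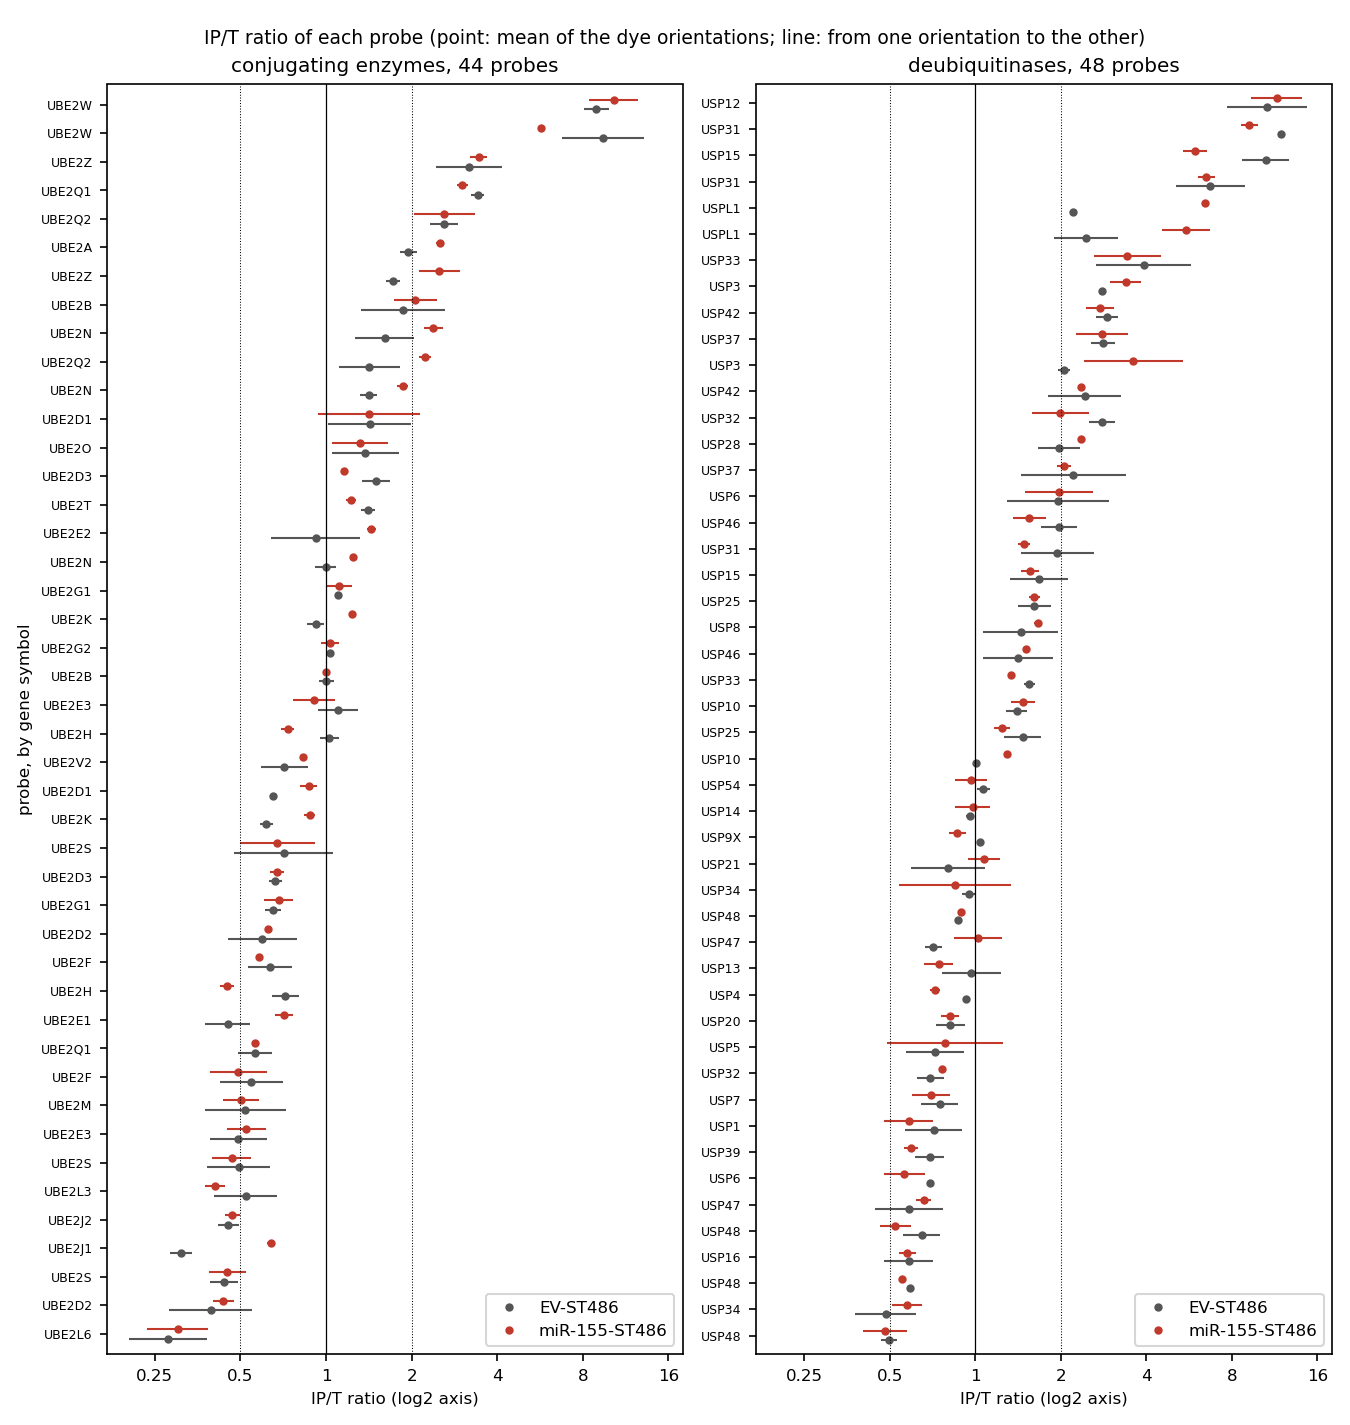
IP/T ratio (horizontal log2 axis) of the kept probes of the conjugating enzymes (left, 1 probe not shown) and deubiquitinases (right), ordered by the mean log2 ratio of both vectors; points are means of the dye orientations in EV cells (grey) and miR-155 cells (red), lines run from one orientation to the other, and dotted lines mark 0.5 and 2. UBE2W leads the conjugating enzymes and UBE2L6 is lowest, USP12, whose Cy5 totals were not well above background, leads the deubiquitinases and USP48 is lowest, and both USPL1 probes stand out by the distance between the vectors.

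By role, the D and E families and UBE2S, the 1 gene measured for the mitotic ligase, had medians below 1. Those of lysine 63 chains and DNA damage had medians above 1, over 4 probes each. The D and E families, which work with a wide range of RING ligases, had a median IP/T ratio of 0.658 in EV cells and 0.785 in miR-155 cells over 10 probes, with 0 at 2 or more in either vector. Their lowest probe was of UBE2D2 (0.393 and 0.436 in EV cells and miR-155 cells) and the highest in the mean of both vectors of UBE2D1 (1.42 and 1.42). UBE2S, which lengthens lysine 11 chains on substrates of the anaphase-promoting complex, had ratios of 0.439 to 0.711 in EV cells and 0.45 to 0.673 in miR-155 cells on its 3 probes. All of these values except those of single UBE2D1, UBE2D3, UBE2E2 and UBE2E3 probes were below 1 in both vectors. UBE2N and its partner UBE2V2, which make lysine 63 chains, had ratios from 0.714 to 1.61 in EV cells and from 0.828 to 2.39 in miR-155 cells. The single UBE2V2 probe was the lowest of them in both vectors. The highest UBE2N probe had ratios of 1.61 (2.04 and 1.27) in EV cells and 2.39 (2.58 and 2.20) in miR-155 cells, and all 3 UBE2N probes had the higher mean ratio in miR-155 cells. UBE2A and UBE2B, the E2 enzymes that ubiquitinate PCNA with RAD18, and UBE2T, the E2 enzyme of the Fanconi anaemia pathway, had a median of 1.62 in EV cells and 1.59 in miR-155 cells over 4 probes. UBE2B had ratios of 1.87 (2.62 and 1.33) in EV cells and 2.06 (2.45 and 1.73) in miR-155 cells on its higher probe, around 2 in both vectors.

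The remaining E2 groups had medians on both sides of 1, and that of the ubiquitin-like modifiers was below that of the D and E families. Enzymes of ER-associated degradation and cullin ligases (UBE2G1, UBE2G2, UBE2J1, UBE2J2 and UBE2K) had a median of 0.651 in EV cells and 0.876 in miR-155 cells over 7 probes, between UBE2J1 at the low end and UBE2G1 (1.1 and 1.11) and UBE2K (0.918 and 1.24) at the high end. Enzymes of ubiquitin-like modifiers had a median of 0.598 in EV cells and 0.58 in miR-155 cells over 7 probes. Among them UBE2M, which conjugates NEDD8, had ratios of 0.521 and 0.502. UBE2Z was the one enzyme of this group above 1. The other conjugating enzymes had a median of 1.40 in EV cells and 1.72 in miR-155 cells over 10 probes, from UBE2L3 at the low end to UBE2W.

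UBE2W, which attaches ubiquitin to the N terminus of proteins, had the highest IP/T ratios of all conjugating enzymes. Its brighter probe (A_23_P71433) had Cy3 and Cy5 signals of 624 and 617 in the total fraction and 4977 and 6164 in the IP fraction of EV cells. In miR-155 cells the signals were 566 and 741 in the total fraction and 6254 and 7081 in the IP fraction. Every IP signal was several-fold above every total signal. The IP/T ratio was 8.93 (9.88 and 8.07) in EV cells and 10.3 (12.5 and 8.44) in miR-155 cells, which ranked 205 and 136 among the 15529 probes kept. A dim second probe (A_24_P346604), with total signals between 23.9 and 72.2 and detected in 7 of the 8 channels, had ratios of 9.45 (6.78 and 13.2) in EV cells and 5.72 (5.72 and 5.72) in miR-155 cells, and the lowest of these totals, in Cy5 of EV cells, was not well above background. A further probe of this gene was detected in 8 channels but removed, because its labellings differed by up to 6.98-fold.

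UBE2Z takes ubiquitin or FAT10 from the activating enzyme UBA6. Its brighter probe (A_23_P83438) gave Cy3 and Cy5 signals of 2860.4 and 3640.1 in the total fraction and 8879 and 11905 in the IP fraction of EV cells, and 3224 and 3119.9 in the total fraction and 11500.0 and 10371 in the IP fraction of miR-155 cells. The IP/T ratio was 3.19 (4.16 and 2.44) in EV cells and 3.44 (3.22 and 3.69) in miR-155 cells. Its other kept probe was lower in EV cells, with 1.72 in EV cells and 2.51 in miR-155 cells. UBE2Q1 and UBE2Q2 are E2 enzymes with an extended N-terminal part. For UBE2Q1, probe A_23_P97423 had ratios of 3.42 (3.61 and 3.23) in EV cells and 3.01 (3.15 and 2.89) in miR-155 cells, whereas probe A_23_P86037, assigned to the same transcript, had 0.563 (0.492 and 0.644) in EV cells and 0.563 (0.573 and 0.553) in miR-155 cells. These probes lay on opposite sides of 1 on all 4 arrays. For UBE2Q2 both probes were above 1. Probe A_24_P412617, detected in 7 of the 8 channels, had 2.6 in EV cells and 2.61 in miR-155 cells. Probe A_23_P77274 had 1.42 in EV cells and 2.23 in miR-155 cells. UBE2A had total signals of 4919.7 and 4102 in EV cells and 4560.0 and 5628 in miR-155 cells. Its ratio was 1.95 (1.82 and 2.08) in EV cells and 2.51 (2.58 and 2.45) in miR-155 cells.

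UBE2L6, the E2 enzyme of ISG15, had the lowest IP/T ratio of both classes. Its signals were 3687 and 2913 in the total fraction and 1111 and 745 in the IP fraction of EV cells, and 2728 and 1893 in the total fraction and 727 and 642 in the IP fraction of miR-155 cells. Each IP signal was below each total signal of the same vector, with ratios of 0.278 (0.202 and 0.382) in EV cells and 0.301 (0.235 and 0.384) in miR-155 cells. UBE2D2 is a broadly acting E2 enzyme whose sequence is close to that of UBE2D3, and cross-hybridization between them was not tested. Probe A_23_P305677 had ratios of 0.393 (0.28 and 0.551) in EV cells and 0.436 (0.476 and 0.399) in miR-155 cells, and probe A_23_P58622 of 0.598 in EV cells and 0.625 in miR-155 cells. UBE2S had bright probes, with total signals of 12027 to 27232 over its 3 probes, and its lowest probe (A_32_P72447) had ratios of 0.439 (0.392 and 0.492) in EV cells and 0.45 (0.387 and 0.522) in miR-155 cells. The other UBE2S probes had 0.493 in EV cells and 0.466 in miR-155 cells (A_32_P184933), and 0.711 in EV cells and 0.673 in miR-155 cells (A_32_P171328), and the last of these was above 1 on 1 array (1.06). UBE2J2, anchored in the ER membrane, had ratios of 0.453 (0.415 and 0.494) in EV cells and 0.468 (0.44 and 0.497) in miR-155 cells on its kept probe. UBE2L3, which works with HECT and RBR ligases, had 0.521 (0.673 and 0.404) in EV cells and 0.408 (0.442 and 0.377) in miR-155 cells. All of these probes had IP/T ratios below 1 in both vectors.

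**Figure D4:**
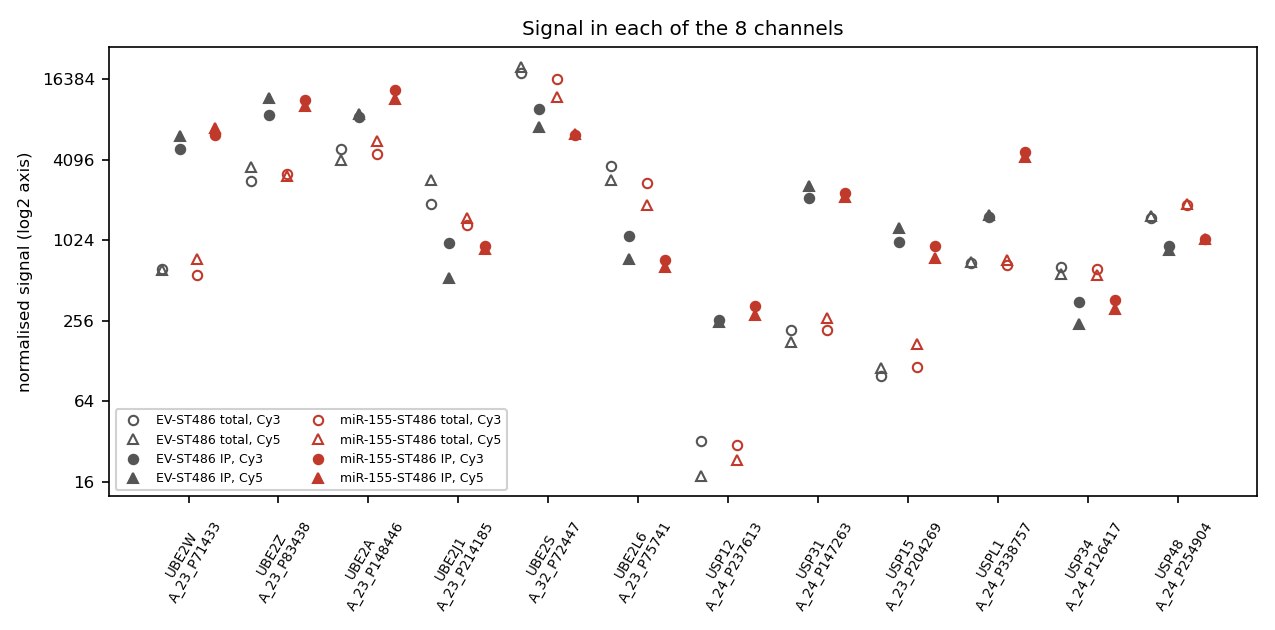
Normalised signal (vertical log2 axis) of 12 probes in each of the 8 channels; circles are Cy3 and triangles Cy5, open symbols the total and filled symbols the IP fraction, grey EV cells and red miR-155 cells, with 1 RNA sample per condition. Filled symbols lie above open ones for UBE2W, UBE2Z, UBE2A, USP12, USP31, USP15 and USPL1 and below them for UBE2J1, UBE2S, UBE2L6, USP34 and USP48, and for USPL1 the red filled symbols lie above the grey ones while the open symbols coincide.

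Among the deubiquitinases, USP12 and USP46, immune and TGF-β proteases, and endosomal proteases had median IP/T ratios above 1, and proteasomal and inactive family members had medians below 1. USP12 and USP46, which depend on the WD-repeat protein UAF1 for activity and are listed here without the further UAF1 partner USP1, had a median of 1.97 in EV cells and 1.55 in miR-155 cells over 3 probes. USP46 had 1.97 in EV cells and 1.55 in miR-155 cells on one probe, and 1.42 in EV cells and 1.51 in miR-155 cells on the other. USP4, USP15, USP25 and USP31, listed for immune and TGF-β signalling, had a median of 1.81 in EV cells and 1.59 in miR-155 cells over 8 probes. In this group 3 probes reached 2 in each vector, all of USP15 and USP31, and USP4 was lowest (0.928 and 0.724). Proteases of endosomes and membranes (USP6, USP8, USP20, USP32 and USP33) had a median of 1.5 in EV cells and 1.49 in miR-155 cells over 8 probes, with 1 probe of USP33 highest (3.92 and 3.42) and 1 of USP6 lowest (0.693 and 0.562). USP6 arose in part from USP32, and signal shared between their probes was not tested.

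Proteases of DNA repair and chromatin (USP1, USP3, USP16, USP21 and USP28) had a median of 1.26 in EV cells and 1.59 in miR-155 cells over 6 probes. USP3, a histone H2A deubiquitinase, was highest, with 2.80 in EV cells and 3.38 in miR-155 cells on its brighter probe, and 2.05 in EV cells and 3.60 in miR-155 cells on the other, which was detected in 4 channels. USP1, which removes ubiquitin from PCNA and FANCD2, had 0.714 in EV cells and 0.584 in miR-155 cells. USP28, known to stabilise MYC, had 1.98 in EV cells and 2.36 in miR-155 cells. The p53 regulators USP7 and USP10 had a median of 1.01 in EV cells and 1.29 in miR-155 cells, with USP7 lowest (0.749 and 0.699) and 1 probe of USP10 highest (1.40 and 1.47). USP5, USP13 and USP14, which handle free ubiquitin chains or sit at the proteasome, had ratios from 0.721 to 0.968 in EV cells and from 0.744 to 0.978 in miR-155 cells, so that 0 of 3 probes reached 2 or 0.5. USP39, a splicing factor without protease activity, had 0.692 and 0.596, and USP54 had 1.07 and 0.967. The large and other proteases had a median of 0.873 in EV cells and 0.865 in miR-155 cells over 13 probes. Of these, 4 probes reached 2 in both vectors, both probes of USP37 and both of USP42, with the highest values on 1 USP42 probe (2.90 and 2.75).

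USP12 had high IP/T ratios against dim totals. Its signals were 32.3 and 17.6 in the total fraction and 258 and 249 in the IP fraction of EV cells, and 30.2 and 23.1 in the total fraction and 327 and 282 in the IP fraction of miR-155 cells. The IP signals of all 4 channels lay far above all totals. The probe was detected in 6 of the 8 channels, and the Cy5 totals of both vectors were not well above background. The IP/T ratio was 10.6 (7.71 and 14.7) in EV cells and 11.5 (9.33 and 14.2) in miR-155 cells, of which the values with total RNA in Cy3 are those detected in both fractions. USP31 was measured by 3 probes of 1 transcript, detected in 7 (A_24_P147263 and A_24_P390583) or 6 (A_23_P206612) of the 8 channels. The brightest (A_24_P147263) had Cy3 and Cy5 signals of 219.7 and 179 in the total fraction and 2132 and 2617 in the IP fraction of EV cells, and 220.1 and 271 in the total fraction and 2322 and 2175 in the IP fraction of miR-155 cells. The IP/T ratio here was 11.9 (11.9 and 11.9) in EV cells and 9.21 (9.88 and 8.58) in miR-155 cells. The others had 6.72 and 6.5 (A_24_P390583) and 1.94 and 1.49 (A_23_P206612) in EV cells and miR-155 cells, so that all 3 were above 1 on every array but differed by up to 6.19-fold.

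USP15, which acts on TGF-β receptors and their SMAD proteins, behaved in the same manner. Probe A_23_P204269 had Cy3 and Cy5 signals of 98.7 and 114 in the total fraction and 988 and 1259 in the IP fraction of EV cells, and 115 and 173 in the total fraction and 931 and 757 in the IP fraction of miR-155 cells. The ratio was 10.5 (12.8 and 8.69) in EV cells and 5.95 (6.56 and 5.39) in miR-155 cells. The second probe (A_32_P57057) was detected in 6 of the 8 channels. It had 1.68 (1.33 and 2.11) in EV cells and 1.56 (1.44 and 1.68) in miR-155 cells. Both USP15 probes were enriched in the IP fraction on every array, the first several-fold more than the second. Its miR-155/EV ratio of 0.565 (0.514 and 0.62) on the first probe was the lowest of all kept ubiquitin probes, and on the second probe the ratio was 0.929 (1.09 and 0.794).

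The low end of the deubiquitinases was held by USP48, USP34, USP16 and USP47. USP48 had 4 kept probes of 1 transcript. Their ratios in EV cells and miR-155 cells were 0.497 and 0.482 (A_24_P393285), 0.588 and 0.551 (A_24_P254904), 0.648 and 0.524 (A_23_P200551) and 0.873 and 0.888 (A_24_P128402). For the brighter probe A_24_P254904 the total signals were 1497 and 1555 in EV cells and 1882 and 1929 in miR-155 cells, and the IP signals 931 and 864 and 1047 and 1054. All 4 probes were below 1 in both vectors. USP34, a large protease of Wnt signalling, had 0.484 (0.378 and 0.619) in EV cells and 0.574 (0.508 and 0.649) in miR-155 cells on its brighter probe and 0.95 (0.902 and 1.00) in EV cells and 0.848 (0.538 and 1.34) in miR-155 cells on the other. USP16, which removes ubiquitin from histone H2A, had 0.583 (0.71 and 0.479) in EV cells and 0.577 (0.618 and 0.539) in miR-155 cells. USP47, a protease of DNA polymerase β, had 0.584 (0.771 and 0.442) in EV cells and 0.659 (0.7 and 0.62) in miR-155 cells on A_23_P148204 and 0.713 (0.664 and 0.765) in EV cells and 1.02 (1.25 and 0.84) in miR-155 cells on A_23_P403588. These probes were below 1 on all 4 arrays, except the second probe of USP34, which was at or above 1 on 2 arrays, and the second of USP47, which was above 1 on 1.

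Probes of the same gene measure the same RNA samples and are not replicates of a condition, but they show how far a ratio depends on the probe. Of the 58 genes with a kept probe, 30 had several, 65 probes in all. The highest and lowest probe of a gene differed by 1.66-fold in the median in EV cells and 1.59-fold in miR-155 cells. In both vectors the difference was at least 2-fold for 6 genes: UBE2Q1, USP6, USP15, USP31, USP32 and USP33. It was at least 4-fold in both for 2 of them, UBE2Q1 (6.07-fold and 5.35-fold) and USP31 (6.13-fold and 6.19-fold). Other genes of the array with several kept probes were not compared in this way. Whether the ubiquitin genes differ from them cannot be said. For USP32 one probe had 2.79 in EV cells and 1.99 in miR-155 cells and the other 0.696 in EV cells and 0.765 in miR-155 cells, on opposite sides of 1. Kept probes of UBE2D1, UBE2D3, UBE2G1, UBE2Q1 and USP6 also lay on opposite sides of 1 in both vectors. Kept probes of UBE2Q2, UBE2W, UBE2Z, USP3, USP10, USP25, USP37, USP42, USP46 and USPL1 were above 1 in both vectors. Within each of these genes they were less than 2-fold apart.

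The miR-155/EV ratio asks which transcripts were more abundant in the IP fraction, relative to total, once miR-155 was expressed. Over all probes kept, 1.15% reached 2 or more and 0.477% lay at or under 0.5. Of the 48 deubiquitinase probes 2 reached 2, both of USPL1, and of the 45 conjugating enzyme probes 1, of UBE2J1. None of the 93 probes of both classes was at 0.5 or below. The median log2 ratio was -0.04 for deubiquitinases (-0.13 and -0.04) and 0.05 for conjugating enzymes (0.06 and 0.09), beside -0.02 over all probes kept. The dye orientations placed 26 of 48 deubiquitinase and 26 of 45 conjugating enzyme probes on the same side of 1. Over all probes kept this held for 9224 of 15529. For many probes, here as over the whole array, even the direction of this ratio was within the error of labelling.

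USPL1, a protease that cuts SUMO rather than ubiquitin and is found in Cajal bodies, had the highest miR-155/EV ratios among the ubiquitin genes. Its brighter probe (A_24_P338757) had Cy3 and Cy5 signals of 696 and 709 in the total fraction and 1536 and 1576 in the IP fraction of EV cells, and 669.9 and 731 in the total fraction and 4687 and 4338 in the IP fraction of miR-155 cells. The total signals coincided in all 4 channels, whereas the IP signals of miR-155 cells lay clearly above those of EV cells. IP/T ratios were 2.21 (2.26 and 2.17) in EV cells and 6.44 (6.47 and 6.41) in miR-155 cells. The miR-155/EV ratio was 2.91 (2.86 and 2.96) and ranked 29 of 15529. The second probe (A_23_P128641) had Cy3 and Cy5 signals of 189.5 and 103 in the total fraction and 325 and 358 in the IP fraction of EV cells, and 161 and 210.5 in the total fraction and 958 and 1082 in the IP fraction of miR-155 cells. The Cy5 total of EV cells was not well above background on this probe. Its totals differed more between labellings, up to 1.85-fold, and its miR-155/EV ratio of 2.26 (3.56 and 1.44) stayed above 1 in both orientations but reached 2 in 1 of them. After normexp correction and quantile normalization the ratio was 2.47 on the first probe and 1.65 on the second. USPL1 is on the list of miR-155 targets that the study drew from these samples, so that these values are a description and no independent evidence.

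UBE2J1, the E2 enzyme that serves ER-associated degradation, passed a miR-155/EV ratio of 2 without being enriched in the IP fraction. Its signals were 1903 and 2897 in the total fraction and 975 and 538 in the IP fraction of EV cells, and 1322 and 1499 in the total fraction and 933 and 876 in the IP fraction of miR-155 cells. The totals were lower and the Cy5 IP signal higher in miR-155 cells than in EV cells. The IP/T ratio was 0.308 (0.283 and 0.337) in EV cells and 0.642 (0.663 and 0.622) in miR-155 cells, below 1 on all 4 arrays. The miR-155/EV ratio was 2.08 (2.34 and 1.85), made up of a total signal at 0.599 and an IP signal at 1.25 of those of EV cells. After normexp correction the probe was removed for dye differences with quantile normalization and had a miR-155/EV ratio of 1.56 with loess. UBE2J1 does not meet the IP/T ratio of at least 2 that the study required of a target.

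**Figure D5:**
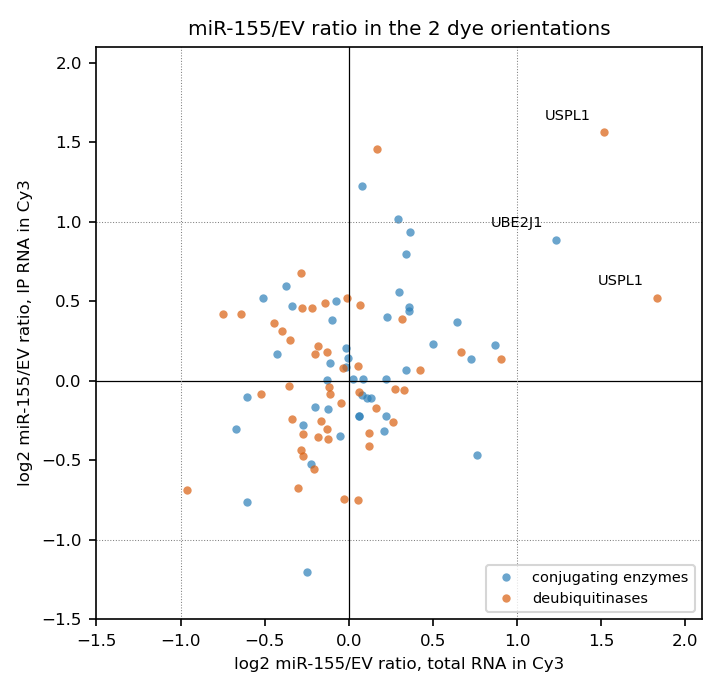
log2 miR-155/EV ratio from the arrays with total RNA in Cy3 (horizontal axis) and from those with IP RNA in Cy3 (vertical axis) for the 45 conjugating enzyme (blue) and 48 deubiquitinase probes (orange), with dotted lines at -1 and 1. The probes scatter around 0 in both directions, and both USPL1 probes and the UBE2J1 probe are the ones with a mean ratio of at least 2.

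The total fractions themselves differed between the vectors. Total signals of deubiquitinases were higher in miR-155 cells than in EV cells in both dyes for 25 of 48 probes and of conjugating enzymes for 10 of 45 (52.1% and 22.2%, with 37.3% over all probes kept). They were lower in both dyes for 7 and 23 probes (14.6% and 51.1%, with 34.5%). Median ratios of the totals were 1.12 for deubiquitinases (1.13 in Cy3 and 1.19 in Cy5) and 0.943 for conjugating enzymes (0.92 and 0.951), beside 1.01 over all probes kept. The class medians of the totals thus lay on either side of that of all probes, deubiquitinases above and conjugating enzymes below it. Without quantile normalization the totals of all probes shifted by 0.44 on the log2 scale, and relative to that shift the class medians were 0.15 and -0.06, as against 0.15 and -0.10 with it. After normexp with loess they were 0.06 and -0.10, and 31 of 54 deubiquitinase probes lay above the median of all probes, where without normexp it was 36 of 48. USP9X, a large protease outside the rule for named genes and picked after its values were seen, had total signals of 1840.1 and 1674 in EV cells and 2997 and 3392 in miR-155 cells, a ratio of 1.82. Whether the vectors, their slides or the single RNA samples make these differences cannot be told apart. In these bulk samples, fewer cells with a transcript and less of it per cell also cannot be told apart.

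Other genes of the pathway, 59 listed by function, gave 66 kept probes of 42 genes. Their median IP/T ratio was 0.844 in EV cells and 0.779 in miR-155 cells, close to that of conjugating enzymes and below that of the ubiquitin-specific proteases. An IP/T ratio of at least 2 was reached by 4 of these 66 probes in each vector. Of all probes kept, 12.1% reached it in EV cells and 12.2% in miR-155 cells. A ratio of at most 0.5 was found for 14 of the 66 in EV cells and 11 in miR-155 cells. Over all probes kept that share was 10% in EV cells and 9.83% in miR-155 cells. Ubiquitin and ubiquitin-like modifiers had a median of 0.873 in EV cells and 0.821 in miR-155 cells over 26 probes. Activating enzymes had a median of 0.75 in EV cells and 0.774 in miR-155 cells over 8 probes. The conjugating enzymes without a UBE2 symbol, such as CDC34, had 1.43 in EV cells and 1.66 in miR-155 cells over 5 probes. Deubiquitinases and SUMO proteases of other families had 0.693 in EV cells and 0.709 in miR-155 cells over 27 probes of 21 genes. In this list 2 probes reached 2 in each vector, of TNFAIP3 (A20), an inhibitor of NF-κB, with 7.44 and 6.16, and of YOD1, with 5.83 and 5.86, which was singled out after its values were seen. BAP1, a histone H2A deubiquitinase, was lowest in EV cells (0.3). The median of these other deubiquitinases lay below that of all probes kept, and that of the ubiquitin-specific proteases above it.

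The 4 probes of the genes set apart from both classes all passed the filters. UBE2MP1, a pseudogene of UBE2M, had IP/T ratios of 0.483 in EV cells and 0.528 in miR-155 cells, next to 0.521 in EV cells and 0.502 in miR-155 cells for UBE2M itself. UBE2NL, derived from UBE2N, had 1.04 in EV cells and 1.11 in miR-155 cells. Signal from the parent genes on these probes was not tested. USP6NL had 8.80 in EV cells and 7.43 in miR-155 cells on A_24_P398130, and 1.45 in EV cells and 1.57 in miR-155 cells on A_23_P138426, so that its probes, like those of UBE2Q1 and USP31, differed more than 4-fold.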

How the data were processed

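Total and Ago2-IP RNA of ST486 cells with empty vector (EV cells) or miR-155 was hybridized to 4 whole genome 44k arrays. The deposited scanner files hold, per spot, background-subtracted and dye-normalized signal intensities from Agilent Feature Extraction 10.5.1.1, the version in the file headers. The deposited series table holds the authors' log2 values, made by quantile normalization in GeneSpring, with column medians of 9.89 to 9.91 and thus no centring on 0. Both dyes of 1 sample were counted as 1 replicate.

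From the processed intensities, control spots were left out, values under 1 were set to 1, spots of a probe were averaged, log2 was taken and the 8 channels were quantile normalized. A probe was kept when it was well above background in 4 or more channels and when the Cy3 and Cy5 signals of every sample were within 2-fold, and the labellings were averaged on the log2 scale. For 14446 kept probes also in the deposited table, 99.9% of log2 values were within 0.05. Ratios use no pseudocount beyond the floor of 1. Gene symbols came from RefSeq identifiers without version, and 23958 of 41000 probes had one.

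The members, functional lists and thresholds were chosen with earlier results of these data known. Given in full are, in each class, the 6 kept probes with the highest and the 6 with the lowest mean log2 IP/T over both vectors, probes whose miR-155/EV ratio reached 2 or 0.5, USPL1, and the other probes of these genes. Functional groups and other pathway genes are given by their counts, median, highest and lowest probes, and further genes were named after their values were seen. With 1 sample per condition, no test was run. Alternatives were normexp background correction (offset 50, local backgrounds above 500 replaced), with quantile or loess normalization, no quantile normalization, the deposited log2 values, other filters, each orientation alone, 1 value per gene, other thresholds and leaving out USPL1. The split by signal was added after seeing the data. The computations were tested on simulated data. Normexp and loess were run with limma 3.58.1 in R 4.3.3, all else with numpy 2.4.6 and pandas 2.3.3 in Python 3.11.15, and plots with matplotlib 3.10.9. Values of 1 conjugating enzyme, 1 pathway gene and 1 marker are not reported here singly. Probe and target site sequences were not analysed here.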

Additional observations from a re-analysis of the deposited data

Results flagged for a closer look

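For 1 probe of each class the IP/T ratio was on one side of 1 on both arrays of EV cells and on the other side on both arrays of miR-155 cells. The share of all probes kept that changed side in this way is not given, so this cannot be called particular to these genes. USP9X, a large deubiquitinase of endosomal and mitotic proteins (probe A_23_P217409), had IP/T ratios of 1.04 (1.05 and 1.03) in EV cells and 0.865 (0.925 and 0.809) in miR-155 cells, a miR-155/EV ratio of 0.831. Its total signals in miR-155 cells were 1.82 times and its IP signals 1.51 times those of EV cells. UBE2K, which makes lysine 48 chains (probe A_24_P286013), had 0.918 (0.98 and 0.861) in EV cells and 1.24 (1.21 and 1.27) in miR-155 cells, a miR-155/EV ratio of 1.35. Its second probe (A_23_P155677) was below 1 in both vectors, with 0.617 in EV cells and 0.876 in miR-155 cells, and its miR-155/EV ratio was 1.42. Both were singled out after their values were seen, the distances from 1 were small beside the spread between labellings of other probes, and the difference between the vectors was not tested.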

How the results depend on the processing

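No paired analysis was possible because each condition is 1 RNA sample and no test was run. The limits are those of 4 arrays: the dye orientations measure labelling error, not the spread between cultures and most high deubiquitinase ratios were measured on dim probes. Differences below are deubiquitinase minus conjugating enzyme medians of log2 IP/T, and pairs of counts are for EV cells and miR-155 cells. Most settings changed 1 choice. Both normexp settings started from median spot signals and local backgrounds instead of the processed intensities, and the loess setting also changed the normalization. The deposited values were used as they stand, without the filters on detection and dye differences applied here. With these settings the probes kept also differed, and the cause of a shift was not tested. Shares of all probes are given for the normexp settings. They are not given for the other filters, 1 value per gene, other thresholds or the split by signal.

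After normexp background correction with quantile normalization the difference was 0.28 in EV cells and 0.22 in miR-155 cells, with 6 and 8 deubiquitinase and 3 and 4 conjugating enzyme probes reaching an IP/T ratio of 2, and 0 and 0 deubiquitinase and 5 and 2 conjugating enzyme probes at most 0.5. After normexp with loess and Aquantile it was 0.19 in EV cells and 0.16 in miR-155 cells, with 5 and 9 deubiquitinase and 3 and 5 conjugating enzyme probes at least 2 and 0 and 0 deubiquitinase and 3 and 1 conjugating enzyme probes at most 0.5. Of all probes with loess, 4.93% in EV cells and 6.97% in miR-155 cells were at least 2. At most 0.5 were 1.84% in EV cells and 1.96% in miR-155 cells. Under both corrections 0 conjugating enzyme probes reached 2 by miR-155/EV, and under the first 1 deubiquitinase probe did. Without quantile normalization the difference in EV cells was 0.54, and with the deposited log2 values 0.80.

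With detection required in all 8 channels the difference was 0.26 in EV cells and 0.12 in miR-155 cells. The deubiquitinase median itself then lay below 0, at -0.047 and -0.048. Of 31 deubiquitinase probes 7 and 7 were at least 2 and 1 and 0 at most 0.5. Of 40 conjugating enzyme probes 3 and 8 were at least 2 and 7 and 7 at most 0.5. By miR-155/EV 1 USPL1 probe and 1 conjugating enzyme probe reached 2. Without the detection filter the difference was 0.23 in EV cells and 0.44 in miR-155 cells. Without the filter on dye differences it was 0.38 in EV cells and 0.46 in miR-155 cells, with 2 deubiquitinase probes at most 0.5 in miR-155 cells and 2 conjugating enzyme probes reaching 2 by miR-155/EV. On the arrays with total RNA in Cy3 it was 0.38 in EV cells and 0.51 in miR-155 cells, with 1 and 4 deubiquitinase probes at most 0.5, and with IP RNA in Cy3 0.45 in EV cells, with 2 conjugating enzyme probes reaching 2 by miR-155/EV.

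With 1 value per gene, the mean of its probes, the difference was 0.39 in EV cells and 0.28 in miR-155 cells. Of 30 deubiquitinases 8 and 9 were at least 2 and 0 and 0 at most 0.5. Of 28 conjugating enzymes 2 and 4 were at least 2 and 5 and 3 at most 0.5. By miR-155/EV 1 deubiquitinase, USPL1, reached 2. With each gene's highest probe the difference was 0.25 in EV cells and 0.23 in miR-155 cells. The conjugating enzyme median then turned positive (0.045 and 0.10), with 9 and 9 deubiquitinases at least 2, 0 and 0 deubiquitinases and 4 and 3 conjugating enzymes at most 0.5, and again 1 reaching 2 by miR-155/EV. Leaving out USPL1 gave 0.41 in EV cells and 0.53 in miR-155 cells and 0 deubiquitinase probes reaching 2 by miR-155/EV. A threshold of 1.5 gave 21 and 21 of 48 deubiquitinase probes and 9 and 11 of 45 conjugating enzyme probes. By the miR-155/EV ratio it gave 3 deubiquitinase and 4 conjugating enzyme probes. A threshold of 3 gave 5 and 9 of 48 deubiquitinase probes and 4 and 4 of 45 conjugating enzyme probes. By the miR-155/EV ratio it gave 0 probes of either class.

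Signal was examined in a split added after seeing the data. Below a mean log2 signal of 10 the difference was 0.78 in EV cells and 0.81 in miR-155 cells. Of 34 deubiquitinase probes there, 11 and 11 were at least 2 and 2 and 1 at most 0.5. Of 19 conjugating enzyme probes, 2 and 5 were at least 2 and 3 and 3 at most 0.5. By miR-155/EV 0 conjugating enzyme and 1 deubiquitinase probe reached 2. At 10 or more the difference was 0.16 in EV cells and -0.11 in miR-155 cells, and the deubiquitinase medians were -0.15 and -0.34. Of 14 deubiquitinase probes there, 3 and 3 were at least 2 and 0 and 0 at most 0.5. Of 26 conjugating enzyme probes, 3 and 5 were at least 2 and 5 and 5 at most 0.5. By miR-155/EV 1 deubiquitinase probe and 1 conjugating enzyme probe reached 2. Of the class differences and counts under all settings, 81 moved by less than the error between orientations or by at most 1.5 times, and the others are among those given here.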
